A study of Mus musculus with 2 samples.

Results

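Isg15, Usp18, Ifit1, Ifit2, Ifit3, Oas2, Rsad2, Mx1, Bst2 and Xaf1 are 10 mouse genes that cells switch on when they sense type I interferon. They were taken by name, from a list, out of the 21853 protein-coding genes of the GENCODE annotation of mm10 used here, and all 10 were found. The sample was inflammation-experienced regulatory T cells, called Treg cells, of 1 adult male mouse, 6 months old. Such cells keep immune responses in check and are defined by the transcription factor Foxp3. The strain is named Foxp3CreERT2 x Rosa26YFP, in which the Foxp3 gene drives a drug-inducible Cre recombinase and the Rosa26 locus carries a yellow fluorescent reporter. The labels call the cells primary and give bone marrow hematopoietic cells as their origin, but do not say what the inflammation was or how the cells were isolated.

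ATAC-seq, in which the Tn5 transposase cuts and tags open DNA, was run on 2 samples, technical replicates of 1 biological replicate. They form 1 group, no untreated or uninflamed cells were analysed here, and the deposited peak lists give no values labelled by library. The values below therefore describe accessibility in this one state, with no spread between animals, no test and no response to interferon. Of the main list, 58138 peaks gave 29415 merged regions. The labelled cell type was checked on marker genes. A region overlapped the promoter of 5 of 6 Treg and T cell markers, all but Cd4 (Foxp3, Il2ra, Ctla4, Ikzf2 and Cd3e), against 0 of 2 B cell markers (Cd79a, Ms4a1), 0 of 3 myeloid markers (Csf1r, Lyz2, Itgam) and 0 of 2 NK cell markers (Ncr1, Klrb1c). The loci of Cd79a and Klrb1c held 3 and 10 regions away from their promoters, and those of Ms4a1, Csf1r, Lyz2, Itgam and Ncr1 held 0. Of 3 markers of plasmacytoid dendritic cells, Siglech had no region, while Tcf4 had a promoter region at 11.4-fold enrichment. The third is Bst2, itself one of the 10 genes, whose part in a mixture of cells was not tested.

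Type I interferons are secreted when a cell detects viral nucleic acid, and they bind the receptor Ifnar1 and Ifnar2 on the same or neighbouring cells. The kinases Jak1 and Tyk2 then activate transcription factors, Stat2 with its partner Irf9 among them, that bind the interferon-stimulated response element, or ISRE, beside the target genes. Factors of the IRF family also bind this element. Its core is a pair of GAAA half-sites separated by a pair of bases. The proteins made from the target genes block viral entry, RNA, protein synthesis or budding, and some restrain the interferon signal itself.

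The promoter sequences are shown first because they carry the half-sites to which the accessible regions are compared. Each run covers bases -160 to -41 from the most upstream protein-coding start, counted on the gene's own strand, where the first transcribed base is 1 and no base is 0, and read 5′ to 3′ from GRCm38 (mm10). Capitals mark GAAA half-sites, or TTTC where they lie on the other strand, that stand 1 or 2 bases apart. The windows are chr4:156200859-156200978 (minus strand) for Isg15, chr6:121245746-121245865 (plus) for Usp18, chr19:34640711-34640830 (plus) for Ifit1, chr19:34583371-34583490 (plus) for Ifit3, chr5:120749894-120750013 (minus) for Oas2, chr12:26456493-26456612 (minus) for Rsad2, chr8:71537497-71537616 (minus) for Bst2 and chr16:97462947-97463066 (minus) for Mx1.
Isg15: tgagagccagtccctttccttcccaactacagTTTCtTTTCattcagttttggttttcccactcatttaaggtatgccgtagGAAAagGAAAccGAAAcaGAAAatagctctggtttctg
Usp18: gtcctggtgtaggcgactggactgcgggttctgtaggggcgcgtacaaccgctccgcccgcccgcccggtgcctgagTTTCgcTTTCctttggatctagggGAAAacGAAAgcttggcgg
Ifit1: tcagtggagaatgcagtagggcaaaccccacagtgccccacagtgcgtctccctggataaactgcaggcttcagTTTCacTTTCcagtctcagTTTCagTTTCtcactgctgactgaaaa
Ifit3: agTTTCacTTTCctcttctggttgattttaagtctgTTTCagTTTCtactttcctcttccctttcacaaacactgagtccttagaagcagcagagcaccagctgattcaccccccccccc
Oas2: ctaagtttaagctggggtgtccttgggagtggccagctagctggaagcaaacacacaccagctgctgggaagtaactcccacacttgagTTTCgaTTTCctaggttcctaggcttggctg
Rsad2: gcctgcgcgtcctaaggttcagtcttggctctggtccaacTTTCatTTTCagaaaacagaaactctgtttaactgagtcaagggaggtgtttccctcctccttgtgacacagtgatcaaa
Bst2: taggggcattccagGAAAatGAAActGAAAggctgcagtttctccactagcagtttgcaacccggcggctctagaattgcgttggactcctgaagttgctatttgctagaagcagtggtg
Mx1: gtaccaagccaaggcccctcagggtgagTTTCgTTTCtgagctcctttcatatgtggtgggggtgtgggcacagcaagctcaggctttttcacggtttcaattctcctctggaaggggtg
Ifit2 and Xaf1 have no such pair in this window, and Ifit2 is shown as the contrast, at chr19:34550534-34550653 (plus strand). Xaf1 has a pair just after its start, at chr11:72301629-72301658 (plus strand), of which 30 bases are shown.
Ifit2: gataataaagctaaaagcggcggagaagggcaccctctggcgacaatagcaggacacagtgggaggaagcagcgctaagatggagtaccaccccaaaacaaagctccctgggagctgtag
Xaf1: tgtgtgcaaaGAAAcGAAActccacagaag

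Of the 10 genes, 9 had an accessible region at their promoter, defined as a region overlapping the 1000 bp on either side of a protein-coding start. Among all protein-coding genes, 49.7% had one (10861 of 21853). The gene without one was Oas2. Fold enrichment is the authors' ratio of a peak to its background, and the highest peak of a region gives its value. The 9 folds ran between 6.27 and 26.5 with a median of 14.9, against a median of 16.4 over the 10861 genes with a promoter region. Of the 9 folds, 4 lay above the median of all promoters and 5 below it.

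Promoters rich in CpG tend to be open, and most of these were poor in it. The ratio of observed to expected CpG, over 500 bp to each side of the 5′ end, had a median of 0.226 in the 10 genes and 0.552 in all genes. Below that median, 8 of the 9 interferon-stimulated genes had a promoter region, against 21.3% of all genes there. The exception was Oas2, at a ratio of 0.216. Usp18, at 0.611, was the gene of the 10 above the median, where 78.1% of all genes had a promoter region. The lowest ratio of the 10, 0.0569, belonged to Mx1, whose promoter was open.

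**Figure D1:**
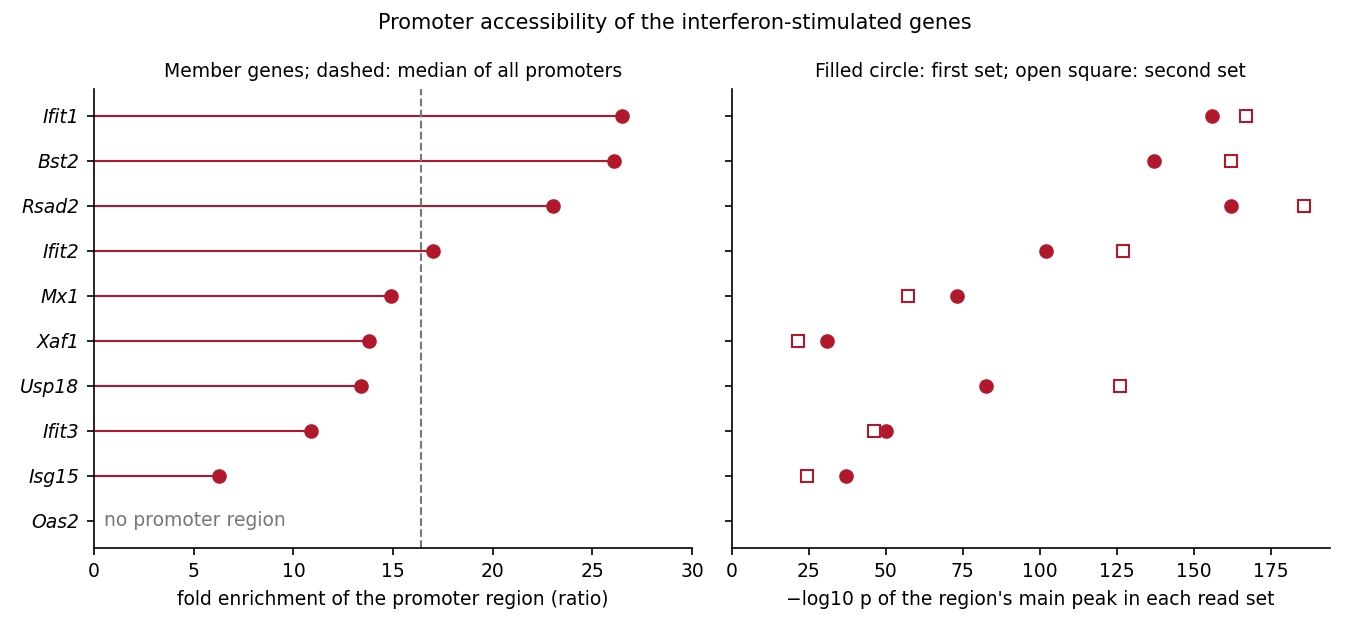
Left, fold enrichment of the promoter region of each gene in order, with the median of all promoters (16.4) as a dashed line; right, −log10 p of the same peak in each of the 2 sets of reads that the authors ranked against each other. Ifit1, Bst2, Rsad2 and Ifit2 lie above the dashed line, Isg15 is lowest at 6.27, and Oas2 has no promoter region.

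Isg15 and Usp18 act on the same modification. Isg15 encodes a ubiquitin-like protein that is attached to other proteins, and Usp18 removes it and also damps signalling at the interferon receptor. The Isg15 promoter region, at chr4:156200681-156200980, was the narrowest of the 9, at 300 bp, and had the lowest fold, 6.27, which ranks at percentile 1.78 of all promoter regions. Its −log10 p was 53.9 in the merged list, with 37.2 in the first set of reads and 24.6 in the second. The weak fold stood beside the densest run of half-sites of the 10 genes, 4 in a row with 2 bases between each, from -78 to -57. A further pair with 1 base between lay at -128 to -120. The summit, the base of strongest signal, was at -13, downstream of both.

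Usp18 showed 13.4-fold enrichment at chr6:121245530-121246122, with −log10 p of 201. Its summit at -40 followed a pair of ISRE cores, at -83 to -74 on the opposite strand and at -59 to -50 on the gene's strand. Usp18 also had the most regions of the 10 genes, 4. A region in its intron, at -7790 bp from its downstream start, reached 18.1-fold. Another lay past its 3′ end at chr6:121271991-121272877 with 19.7-fold and −log10 p of 261, both above its promoter's values. A start of the noncoding RNA gene Gm44148 lies within 1000 bp of it, so to which gene this region belongs was not tested. In the IDR-thresholded list it was the one region of the 10 genes away from their promoters that held an ISRE core. A weak region at -2580 bp had 4.43-fold enrichment.

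Ifit1, Ifit2 and Ifit3 encode tetratricopeptide proteins that bind viral RNA or hold back its translation, and they sit together on chromosome 19. Ifit1 had the highest fold of the 10 genes, 26.5, at percentile 96.3 of all promoters, with −log10 p of 323 (156 in the first set of reads and 167 in the second). That region, chr19:34640513-34641135, is shared with the related gene Ifit1bl2, which is transcribed away from Ifit1 from a start 128 bp upstream. The summit lay 89 bp from the Ifit1 start and 39 bp from the Ifit1bl2 start, so the enrichment cannot be divided between them. ISRE cores lay at -86 to -77 and -67 to -58, the nearest 8 bp from the summit. A second region 21283 bp downstream of the Ifit1 start, beyond the last gene of the cluster, reached 20.2-fold.

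Ifit3 had 10.9-fold enrichment at chr19:34582762-34583687, the widest of the 9 promoter regions at 926 bp, with 3 summits. Its highest summit, at -143, fell between its ISRE cores at -158 to -149 and -124 to -115. A region in an Ifit3 exon, 4896 bp downstream of the start, reached 9.75-fold. The copy gene Ifit3b repeated this layout, with 11.7-fold at its promoter and 9.87-fold in an exon. The promoters of the pair are 70.7% identical over 300 bp, and the 300 bp around the exonic summits are 90.6% identical. How reads that fit several places were treated is not given in the sources used here, so the values of Ifit3 and Ifit3b are uncertain.

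Ifit2 differed from its relatives in promoter sequence but not in being open. Its promoter region at chr19:34550301-34551199 reached 17-fold with −log10 p of 231 and had 4 summits, at -313, -64, 181 and 412 bp from the start, the most of the 9. No pair of half-sites 1 or 2 bases apart was found in that region or in the window around its starts. It had 1 match each to the STAT motif GAS (TTCNNNGAA) and to the ETS motif (CCGGAAG). No match says only that these letters are not in these windows. A further region, at -2528 bp, had 5.09-fold enrichment. Its CpG ratio of 0.433 was the highest of the Ifit genes, which otherwise lay between 0.0409 for Ifit1bl1 and 0.118 for Ifit1bl2.

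All 6 Ifit genes of the 99.3 kb cluster had a promoter region. Besides those above, Ifit1bl1 had 12.1-fold enrichment, and a second region at the other of its starts had 11.6-fold. Every promoter region of the cluster except that of Ifit2 held at least 1 ISRE core. In and just past the cluster, the pseudoreplicated list adds 6 regions between 2.14-fold and 6.57-fold. The only one of them with an ISRE core lies in an Ifit2 exon, at 5.81-fold, with the Ifit3 start as its nearest.

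**Figure D2:**
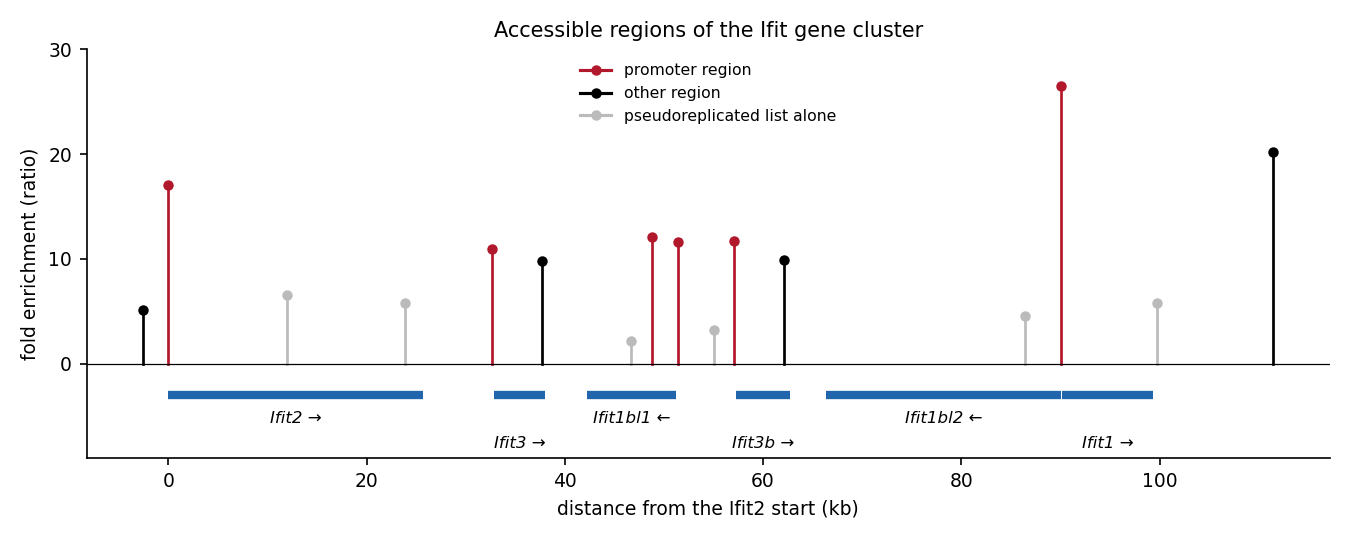
Fold enrichment of each accessible region (vertical axis, ratio) by the distance of its summit from the Ifit2 start in kb, with the 6 genes as bars and arrows for their direction. Promoter regions are red, other regions black and regions found in the pseudoreplicated list alone grey; the tallest, at 26.5, stands between Ifit1bl2 and Ifit1.

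Oas2 encodes an enzyme that makes oligoadenylates when it meets double-stranded RNA. It was the one gene of the 10 with no accessible region anywhere at its locus, where 36.8% of all loci had none. Its promoter nevertheless has an ISRE core at -71 to -62, followed by CT on its strand, as shown above. Over the windows of its 2 starts, 2 cores were counted, this core among them. The pseudoreplicated list, which is less strict, held a single Oas2 region, in an intron at chr5:120742063-120742429, with 4.55-fold enrichment, −log10 p of 8.54 and an irreproducible discovery rate (IDR) of 0.357. Its summit lay at -3918 bp from the nearer start. Of 6 related genes, Oas1a, Oas1g and Oas3 also lacked a promoter region, while Oasl1 had one at 17.3-fold and Oasl2 at 19.5-fold. Oas1c had one at 28.9-fold, the highest fold of all the interferon genes examined. At unknown depth an absent region says that none was detected, not that the promoter was closed.

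Rsad2 encodes viperin, which makes a nucleotide that stops viral RNA synthesis. Its promoter region at chr12:26456038-26456788 had 23-fold enrichment and the highest −log10 p of the 9, 344, with 162 in the first set of reads and 186 in the second. It formed a single summit at -48. An ISRE core lay at -120 to -111, and the region had the one TATA match (TATAAA) of the 9. A region in an exon of the gene, 12207 bp downstream of its start, reached 14.1-fold.

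Mx1 encodes a dynamin-like GTPase that blocks influenza virus in the nucleus of mouse cells. Its promoter region at chr16:97462634-97463495 had 14.9-fold enrichment, the median of the 9, and −log10 p of 136. No ISRE core was found in it, and a pair of half-sites with 1 base between lies at -132 to -124. The summit of the region lay at -88. The gene had 3 regions in all. One in an intron of its neighbour Fam3b, at -15959 bp, reached 14.7-fold, close to the promoter's value. The third lay 16726 bp downstream of another Mx1 start, the nearest to it, at 11.7-fold.

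Bst2 encodes tetherin, which holds budding virus particles at the cell membrane. Its promoter region at chr8:71537095-71537778 reached 26.1-fold enrichment, at percentile 95.6 of all promoters, with −log10 p of 304. It was the only region at the locus. A run of 3 half-sites, each 2 bases apart, spans -146 to -131, farther from its summit at -44 than in the other genes with a core, at 92 bp.

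Xaf1 encodes an interferon-induced protein that favours cell death. It too had a single region, at chr11:72301250-72301939, with 13.8-fold enrichment. Its −log10 p of 52.6 was the lowest of the 9, although Usp18 at nearly the same fold had 201. The pair of half-sites with 1 base between lies at 11 to 19, after the start, as printed above, while the summit lay before it at -49.

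The ISRE core was found in most of these promoters. Searched as GAAANNGAAA on both strands from 250 bp upstream to 50 bp downstream of any start, it was found in 7 of the 10 genes, against 6.61% of all genes (1444 of 21853). The 7 were Isg15, Usp18, Ifit1, Ifit3, Oas2, Rsad2 and Bst2. Within the promoter regions themselves it was found in 6 of 9, against 9.44% (1025 of 10861). The longer form followed by CT, GAAANNGAAACT, was in 5 of 10 genes (Usp18, Ifit1, Ifit3, Oas2 and Bst2) and in 0.526% of all genes. Since the ISRE is where the factors activated by interferon bind beside target genes, its presence is a description of the list and not a finding about these cells.

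The summits of the open DNA lay close to it. In all 6 promoter regions with a core, a core lay within 100 bp of the summit, at 8 to 92 bp and a median of 31.5 bp. Of all 1025 promoter regions with a core, 26.4% had one that near, and the median distance was 236 bp. The summits of the 9 genes all lay 0 to 150 bp upstream of a start, against 60.2% over all genes with a promoter region. The 9 regions were also narrower, with a median width of 690 bp against 948 bp, and 44.4% had a single summit, against 16.1% of all promoter regions. A narrow region limits the distance a motif in it can have from the summit, and the part of width in the short distances was not tested. The cores of the 6 genes also lie shortly before the start, between -158 and -50, as the summits do. The part of this shared position in the short distances was not tested either.

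**Figure D3:**
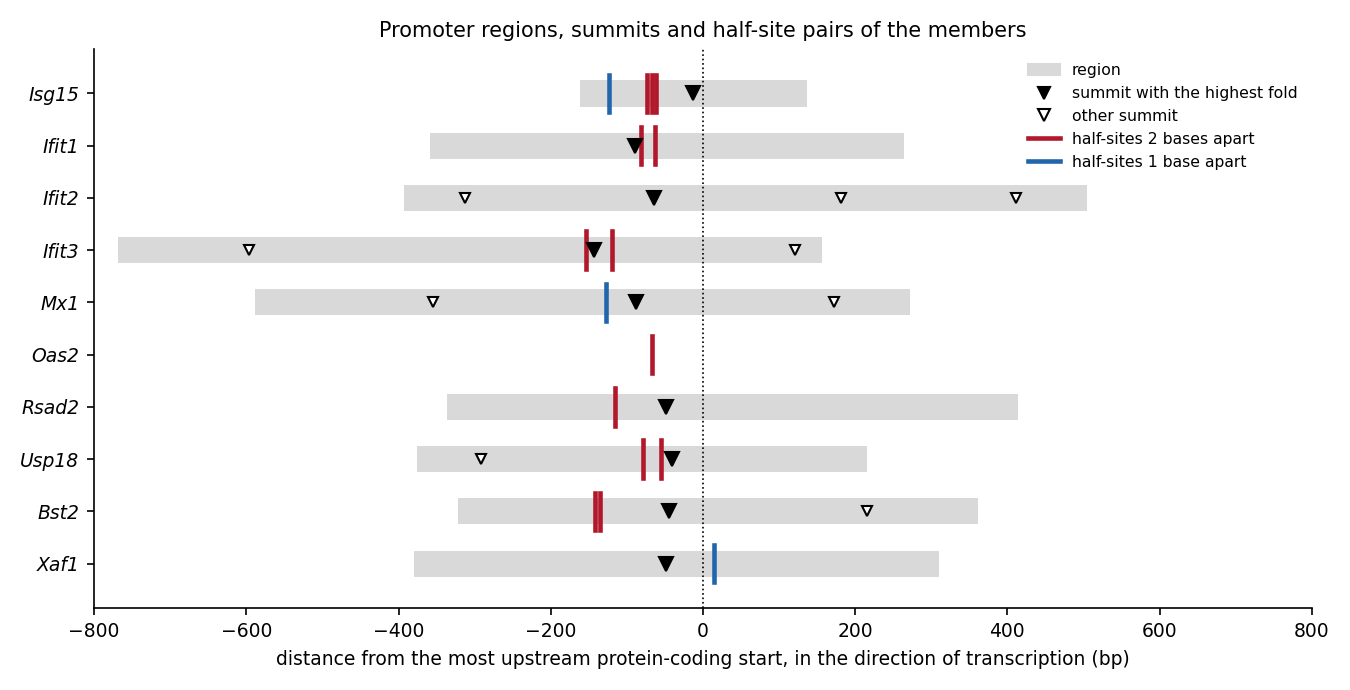
Promoter region (grey bar), summits (triangles, filled for the highest) and pairs of half-sites (red, 2 bases apart; blue, 1 base apart) of each gene by distance in bp from its most upstream protein-coding start. The filled triangles stand between -143 and -13, and most half-site pairs lie within the same stretch; Oas2 has a pair but no region.

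The distance between half-sites was varied from 0 to 10 bases. A spacing of 2 was the most frequent in the 10 genes. A spacing of 1, GAAANGAAA, was in 3 of them (Isg15, Mx1 and Xaf1), against 6.04% of all genes. The same number of genes, 3 (Ifit3, Oas2 and Rsad2), had a spacing of 3, against 4.91%. Spacings of 1 or 2 covered 9 of the 10 genes, all but Ifit2, against 11.7% of all genes. A spacing of 8 was in 5 genes (Isg15, Ifit3, Mx1, Bst2 and Xaf1), against 5.21%, and a row of 3 half-sites with 2 bases between each, as in Isg15 and Bst2, contains it by construction. Spacings of 9 and 4 were in 2 genes and 1 gene, against 5.4% and 5.2%. Spacings of 0, 5, 6, 7 and 10 were in none of the 10 and in 4.06% to 6.54% of all genes.

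**Figure D4:**
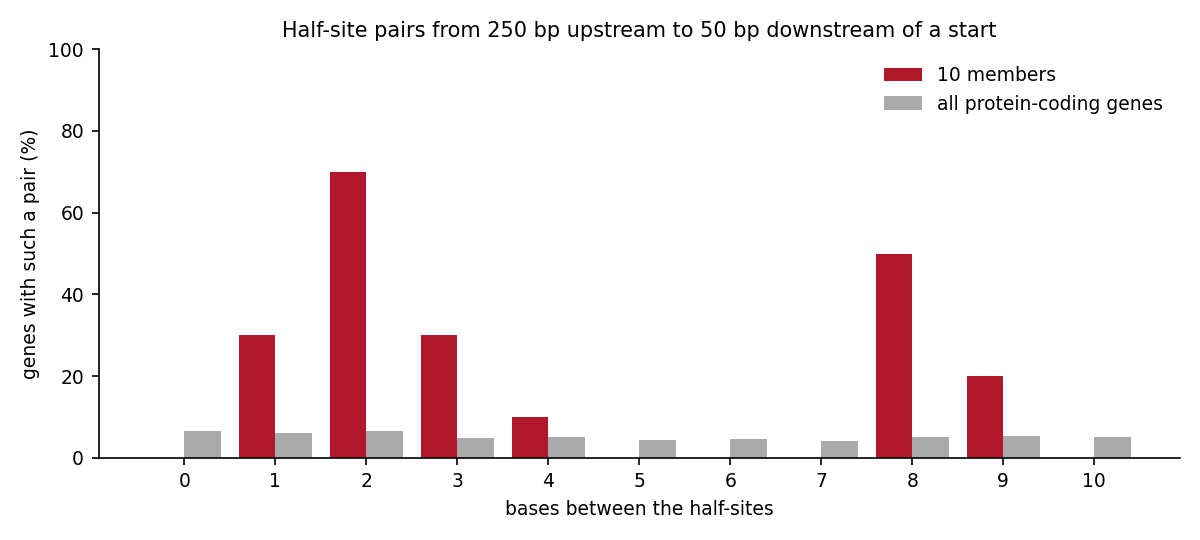
Share of the 10 genes (red) and of all protein-coding genes (grey) with a pair of GAAA half-sites, by the number of bases between them. The red bars reach 70% at 2 bases and 50% at 8, while the grey bars stay between 4.06% and 6.61%.

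Other motifs were found in fewer of the 10 genes. In the same window, GAS (TTCNNNGAA) was found in 2 of 10 genes against 14% of all genes, ETS (CCGGAAG) in 2 against 14.8%, and the RUNX motif (TGTGGT) in 1 against 25.4%. AP-1 (TGANTCA) was found in 4, Ifit3, Mx1, Rsad2 and Xaf1, against 12%. These shares were not tested. Across the whole genome the ISRE core by itself went with little difference in accessibility. Of genes with a core, 52.9% had a promoter region, against 49.5% of genes without one, and with the CT form 63.5% did, against 49.6% without.

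The loci were also searched away from the promoters. A locus was the gene body with 5 kb on either side, plus regions whose nearest protein-coding start within 100 kb is in the gene. The 10 loci held 19 regions, 9 at the promoters and 10 elsewhere. The mean was 1.9 per locus against 1.63 over all genes, and the median 2 against 1. Of the 10 others, 1 lay at the start of AW011738, at -2348 bp from the Isg15 start, with 13.7-fold enrichment, 2 in introns, 2 in exons and 5 between genes. Their folds ran between 4.43 and 20.2 with a median of 13.9, against 12 for all 18613 regions farther than 1000 bp from a start. The sets are not quite alike, since the 10 include the region at the AW011738 start and the 18613 leave such regions out. An ISRE core was in 1 of the 10, against 12.7% of those 18613 regions, and the RUNX motif in 4, against 46.9%. The pseudoreplicated list adds 15 regions at these loci, between 2.39-fold and 7.66-fold, some of them at starts of Agrn, Mx1 or Usp18. Of the 15, 5 have an ISRE core. The share over all regions of that list is not given here, so this count cannot be set against the 12.7%.

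In the rest of the type I interferon pathway, promoter regions were found at the receptor, kinase and transcription factor genes but not at the interferon genes. Of 66 further pathway genes, 42 had a promoter region (63.6%), again against 49.7% of all genes. None of the 14 ligand genes had one, Ifnb1, Ifna1, Ifna2, Ifna4, Ifna5 and Ifna9 among them. An ISRE core is in the window of 9 of the 14, all Ifna genes or Ifnab, against 6.61% of all genes. Likeness of sequence among the ligand genes was not measured, and how reads that fit several places were treated is not given. Their lack of regions is therefore uncertain. With 2000 bp on either side of a start, 1 of the 14 had a promoter region. The receptor and its kinases all had one, at 18.4-fold for Ifnar1, 8.04-fold for Ifnar2, 17-fold for Jak1 and 15.3-fold for Tyk2. Jak1 and Ifnar1 had 16 and 10 regions at their loci, more than any of the 10 target genes.

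Among the transcription factor genes of the pathway, Stat2 had a promoter region at 28.3-fold and Irf9 at 22-fold, while Irf1 had 14.4-fold, Irf7 13.4-fold and Irf3 18.4-fold. Stat2 and Irf9 act in the complex that binds the ISRE. None of these 5 genes has the core in its own window, but only 6.61% of all genes do, so most genes lack it. The 4 genes for enzymes that attach Isg15 to proteins also had a promoter region, Uba7 at 19.2-fold, Ube2l6 at 16.4-fold, Herc6 at 15.2-fold and Trim25 at 24.4-fold. Each of these 4 exceeded the 6.27-fold of Isg15 itself, as do nearly all promoter regions, since that fold ranks at percentile 1.78.

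Of 10 sensors of nucleic acid and their adaptors, 7 had a promoter region. The highest were Mavs, the adaptor of cytosolic RNA sensors, at 24-fold, the nucleic acid sensor Zbp1 at 19.8-fold and Tmem173, known as STING, at 14.3-fold. The endosomal receptors Tlr3, Tlr7 and Tlr9 had no region at their loci. Of 28 further antiviral effectors, 21 had a promoter region, led by Oas1c, Ifi27 at 27.2-fold and Ifit1bl2 at 26.5-fold. The Ifit1bl2 value is that of the region shared with Ifit1, so it is not a separate region. The 7 without a promoter region were Oas1a, Oas1g, Oas3, Ifi44, Ifitm1, Ifitm2 and Ifitm3. Of these, 5 have an ISRE core in the window, against 6.61% of all genes.

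**Figure D5:**
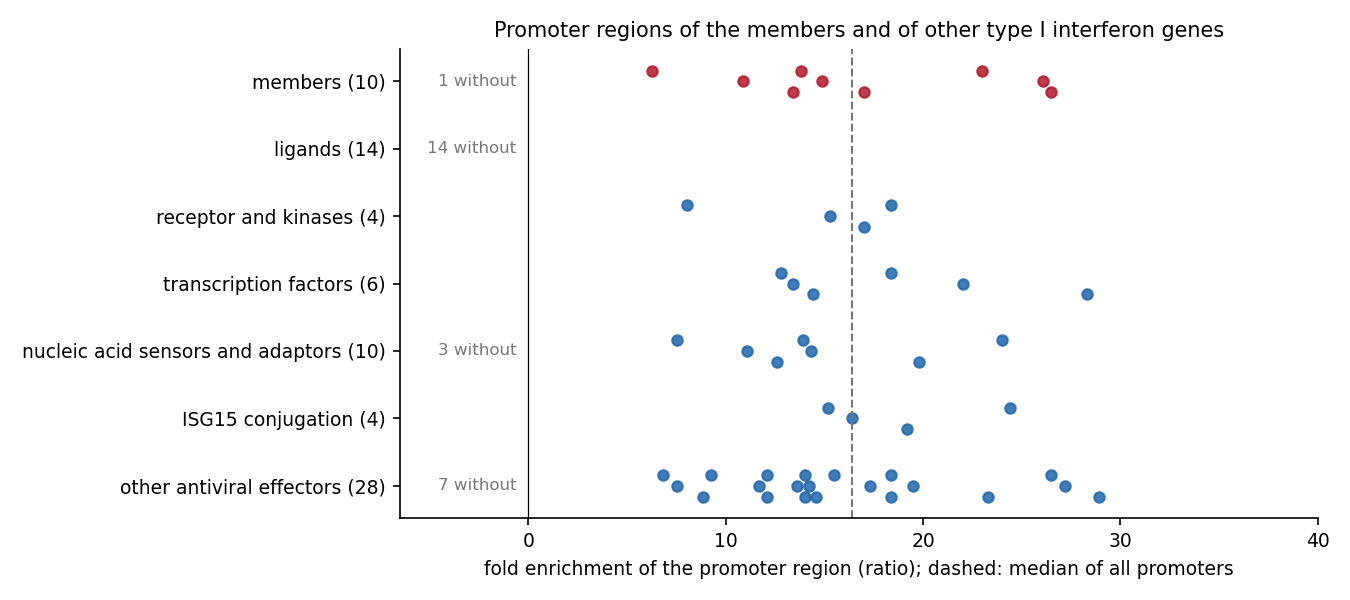
Fold enrichment of promoter regions (horizontal axis, ratio) of the 10 genes (red, top row) and of 66 other type I interferon genes by group (blue), 1 point per gene, with the number of genes without a region at the left and the median of all promoters dashed. No ligand gene has a point, and the 9 red points spread over much the same range as the blue ones. The points of Ifit1 (red) and Ifit1bl2 (blue) stand for the same region.

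The sets of reads that the authors ranked against each other give the one internal comparison that these lists allow. The larger −log10 p of a promoter peak was between 1.07 and 1.53 times the smaller in the 9 genes, with a median ratio of 1.24, against 1.16 over all genes with a promoter region. The set with the larger value differed between genes, the second for Ifit1, Ifit2, Rsad2, Usp18 and Bst2 and the first for Isg15, Ifit3, Mx1 and Xaf1. The order of Ifit1, Bst2 and Rsad2 by −log10 p was not the same as by fold. The labels do not say that the sets are the libraries, so the sets may be parts of the same pooled reads. No error of the folds can be had from them, so neighbours in the order of folds cannot be told apart.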

How the data were processed

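ATAC-seq peak lists of 2 samples in 1 group were used as deposited. Per the text deposited with the samples, which is the same for both, the authors derived the lists on mm10 from 1 filtered alignment, so each list is treated as a pool of both. The aligner, caller, Tn5 shift, filters and the IDR threshold were not given in the sources used here. Depth is unknown. Each deposited peak has a fold enrichment (a linear ratio), a −log10 p-value, a score and a summit, units taken from the values and column order. The background of the fold is not stated. In the ranked list the authors also give −log10 p in each of 2 sets of reads. In the IDR-thresholded list the deposited score runs between 540 and 1000.

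Overlapping or touching peaks of the IDR-thresholded list were merged; the peak with the highest fold set a region's fold and summit, and its −log10 p is the highest among its peaks. Genes and starts came from GENCODE M21 and bases from GRCm38.p6, whose 21 chromosomes matched the lists, with 0 regions past a chromosome end. A gene with several promoter regions took the highest. Genes, gene lists, motifs and windows were chosen with earlier results of these data known. All 10 genes are named. Of each pathway group, every gene is named where it has up to 6 genes, otherwise the 3 with the highest fold and up to 6 without a promoter region. A few genes of the lists are not reported here. Ifitm3, Ifit1bl1, Ifit3b, Oasl1, Oasl2, AW011738, Fam3b and Gm44148 were named after their values were seen. Mx2 and Oas1b were not in the gene set, and Mb21d1 was found as Cgas. Genes with starts within 1000 bp of a promoter region are named as neighbours. No p-value was computed. Alternatives were the other list, the upper 50% of regions by fold, other windows, starts, merging and motif forms. Columns of values of a sample that were not used numbered 0. Functions were tested on simulated data. Python 3.11.15, numpy 2.4.6, matplotlib 3.10.9 and samtools 1.23.1 were used.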

Additional observations from a re-analysis of the deposited data

How the results depend on the processing

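With 1 biological replicate and lists that pool the libraries, no replicate could be left out. No paired analysis was possible because the samples form 1 group. The promoter call held for 9 of 10 genes under the pseudoreplicated list, windows of 500 and 2000 bp, the 5′ end alone, and other merging. Of all genes, 55.3% had a promoter region in that list. The share was 48.8% and 50.9% with those windows and 46.7% with the 5′ end alone. The call held for 7 in the upper 50% of regions by fold, without Isg15, Ifit3 and Oas2, where 35.4% of all genes had one. The median fold stayed at 14.9 under every alternative run. The 19 regions became 34 in the pseudoreplicated list. Of the 15 more listed there, 5 have an ISRE core, with no share over all regions of that list beside them. Without merging the 19 became 36, since peaks are then counted singly. The regions numbered between 13 and 21 under the others. The ISRE core was in 6 of 9 promoter regions, in 4 when followed by CT and in 2 as 3 half-sites, which are stricter forms. In the window, 7 genes had the core, against 0, 3, 3, 1, 0, 0, 0, 5, 2 and 0 with half-sites 0, 1, 3, 4, 5, 6, 7, 8, 9 and 10 bases apart. Pathway genes with a promoter region numbered between 30 and 48, against 42. The 30 came from the upper 50% of regions by fold, where 35.4% of all genes had one. The 48 came from the pseudoreplicated list, where 55.3% did. Of 36 alternative values of single genes, 1 moved, Isg15, to 13.7-fold with a window of 2000 bp, which takes in the region at AW011738. Unknown depth limits every absent region, Oas2 included.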
